A study of Mus musculus with 18 samples.

Results

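The 6 chemokine genes of mouse fibroblasts, Ccl2, Ccl7, Cxcl1, Cxcl5, Cxcl12 and Cx3cl1, were followed over 32 h after a glucocorticoid pulse. They were taken by name, 6 of the 21937 genes in the table of normalised reads, and each had a value in every library. This set and the gene lists used below were chosen with earlier results of these data known. The cells were NIH3T3, an immortalised line of mouse embryo fibroblasts, which stands for fibroblasts in culture and not for a tissue. All of them had received 100 nM dexamethasone, a synthetic glucocorticoid, for 2 h. The pulse ended with a change of medium, which set 0 h, and cells were harvested at 0, 4, 8, 12, 16, 20, 24, 28 and 32 h. Each of these 9 groups held 2 libraries (replicate 1 and replicate 2), 18 in all, and RNA sequencing gave a read count per gene for each. No group of unpulsed cells was analysed here, so each change is one between times of the course, and the effects of the hormone, of its withdrawal and of the fresh medium cannot be told apart. The labels do not say whether the replicates were separate cultures, so p-values measure the spread between these libraries, which may be technical.

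Chemokines are small secreted proteins that guide migrating cells through G-protein-coupled receptors, and they are classed by the spacing of their first cysteines. Ccl2 and Ccl7 are CC chemokines, made by neighbouring genes, that draw monocytes through the receptor Ccr2. Cxcl1 and Cxcl5 are CXC chemokines with an ELR motif that draw neutrophils through Cxcr2. Ccl2 and Cxcl1 were both first cloned, as JE and KC, from mouse fibroblasts stimulated with growth factor. Cxcl12 binds Cxcr4 and the scavenging receptor Cxcr7, retains blood progenitors in the marrow and is made by many stromal fibroblasts without stimulation. Cx3cl1, fractalkine, is made as a transmembrane protein whose chemokine domain sits on a stalk. The metalloproteases Adam10 and Adam17 release it, and its receptor is Cx3cr1. Glucocorticoids are known to repress many inflammatory chemokine genes, in part by antagonising the transcription factor NF-kB and in part by shortening the life of mRNAs with AU-rich elements.

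RefSeq's table of promoters held 3 of the 6 genes, with coordinates on the build GRCm38.p6. All 3 are shown for that reason and were not picked by their change. The mRNAs of Cxcl1 and Cxcl12 changed at 4 h and that of Cx3cl1 at 8 h. Cxcl5, which the table lacked, changed at 8 h too. Each line gives the 250 bases before the annotated start of transcription, 5′ to 3′, and capitals mark the motifs found.
Cxcl1 promoter, chr5:90890995-90891244, + strand: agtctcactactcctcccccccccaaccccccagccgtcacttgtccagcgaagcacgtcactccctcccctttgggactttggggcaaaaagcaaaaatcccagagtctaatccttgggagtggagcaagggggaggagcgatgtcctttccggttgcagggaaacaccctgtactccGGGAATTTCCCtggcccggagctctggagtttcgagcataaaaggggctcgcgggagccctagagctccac
Cxcl12 promoter, chr6:117168285-117168534, + strand: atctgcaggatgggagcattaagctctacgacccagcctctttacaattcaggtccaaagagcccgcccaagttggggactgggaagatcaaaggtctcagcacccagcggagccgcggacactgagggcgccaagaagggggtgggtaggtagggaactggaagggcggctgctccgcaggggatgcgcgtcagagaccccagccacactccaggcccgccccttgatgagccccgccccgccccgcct
Cx3cl1 promoter, chr8:94771930-94772179, + strand: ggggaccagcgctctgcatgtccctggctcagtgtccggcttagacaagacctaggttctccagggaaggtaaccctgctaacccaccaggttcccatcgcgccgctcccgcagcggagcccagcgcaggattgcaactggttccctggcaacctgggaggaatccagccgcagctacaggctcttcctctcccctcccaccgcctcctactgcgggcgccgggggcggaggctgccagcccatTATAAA
The motifs searched, on both strands, were the NF-kB consensus, the AP-1 site TGANTCA, the glucocorticoid receptor half-site AGAACA, the E-box CACGTG and the TATA box TATAAA. In Cxcl1 the NF-kB consensus was met on both strands, by overlapping matches that together span bases -71 to -61 from the start. Cx3cl1 held TATAAA at bases -6 to -1, and the Cxcl12 window held none of these letters. Of the 32851 promoter windows of this length in the table, 3.90% held the NF-kB consensus, 6.75% TGANTCA, 16.1% AGAACA, 6.02% CACGTG and 12.4% TATAAA. A match describes letters and is not evidence of binding.

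The mRNA of all 6 genes varied over the course, but in different directions and at different times. Values are normalised reads, that is, reads per gene divided by 1 size factor per library. Changes are log2 differences ± SE on the log2(value + 1) scale, and a gene is called where the Benjamini-Hochberg adjusted p of limma over the 12393 tested genes is under 0.05. In the F test over the 9 times all 6 passed, with adjusted p between 2.72e-05 for Cx3cl1 and 0.0138 for Ccl7, while 52.0% of all tested genes passed. The median range between the highest and lowest time mean over all tested genes was 0.45 on the log2 scale, and the 6 genes ranged by 0.47 for Ccl2 to 1.18 for Ccl7. A bulk sample cannot tell fewer cells of a kind from less RNA per cell.

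Against 0 h, 2 of the 6 were called at 4 h (background 21.5% of tested genes), with Cxcl1 lower and Cxcl12 higher. At 8 h 3 were called (34.4%), with Cxcl5 and Cxcl12 higher and Cx3cl1 lower. Cxcl5 above and Cx3cl1 below 0 h were the 2 calls at 12 h (36.2%), 16 h (36.5%) and 20 h (38.6%), and Cxcl12, by then below 0 h, made 3 at 24 h (37.2%). At 28 h (39.8%) and at 32 h (40.8%), 5 of the 6 were called: Ccl2, Ccl7 and Cxcl5 were higher and Cxcl12 and Cx3cl1 lower. At the times with 2 calls the share of the 6 was near that of all genes. These comparisons share the 0 h libraries. With 1 library left out, the number called was 1 at 4 h without replicate 1 of 4 h or either library of 0 h, 1 at 8 h without replicate 2 of 0 h, 1 at 20 h without replicate 1 of 20 h, 3 at 28 h without either library of 0 h or replicate 2 of 28 h, 2 at 28 h without replicate 1 of 28 h, and 3 at 32 h without replicate 2 of 0 h. Scaling the libraries to equal totals, in place of the authors' size factors, put the median change of all tested genes from 0 h at 0.03 (log2) at 4 h, 0.14 at 8 h and 0.22 at 32 h. It turned no call of the 6 round, but it moved the number called at 12, 16, 20, 24 and 32 h to 3, 4, 4, 5 and 4. Of the 12393 tested genes, equal totals called 5953, 6281, 6530, 6688 and 6862 at those times. The replicate block moved the number of the 6 called at 12, 16, 20 and 24 h to 3, 3, 4 and 4, and DESeq2 moved it to 3 for 16 h. The shares of all genes called by the block and by DESeq2 at these times are not given here.

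**Figure D1:**
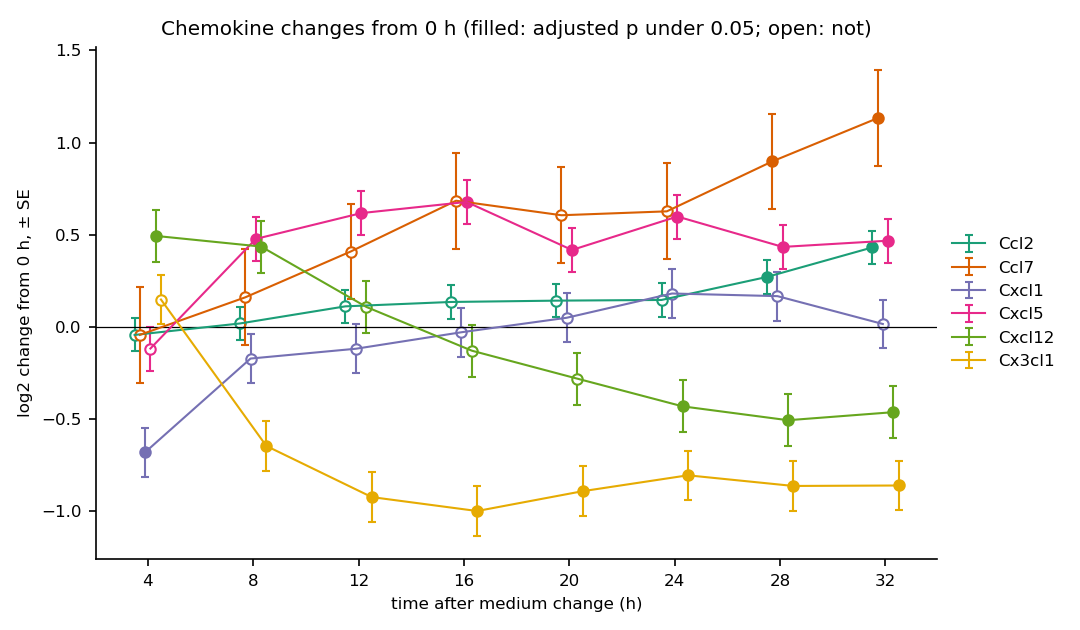
Log2 change from 0 h (y axis, ± SE) of each of the 6 chemokine mRNAs at 4 to 32 h after the medium change (x axis, h), with filled points for an adjusted p under 0.05. Cxcl1 and Cxcl12 depart in opposite directions at 4 h, and at 32 h Ccl2, Ccl7 and Cxcl5 lie above 0 h and Cxcl12 and Cx3cl1 below it.

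Levels between the genes can be compared only per length. Per kb of merged exons (GENCODE, GRCm38), the median over the 18 libraries was 2346 normalised reads for Cxcl5, 824 for Ccl2, 385 for Cxcl1, 286 for Cx3cl1, 237 for Ccl7 and 196 for Cxcl12. The neutrophil chemokine Cxcl5 was the highest of the 6 on this scale at all 9 times. Ccl7 was the lowest at 0, 4 and 8 h (174 per kb at 0 h, where Cxcl12 had a mean of 211), the 2 were level at 12 h (228 for Ccl7 and 227 for Cxcl12), and Cxcl12 was the lowest from 16 h on. Cxcl12 has the longest exons, 7.16 kb against 1.57 kb in Cxcl5. Exons that a library does not use lower such a value.

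**Figure D2:**
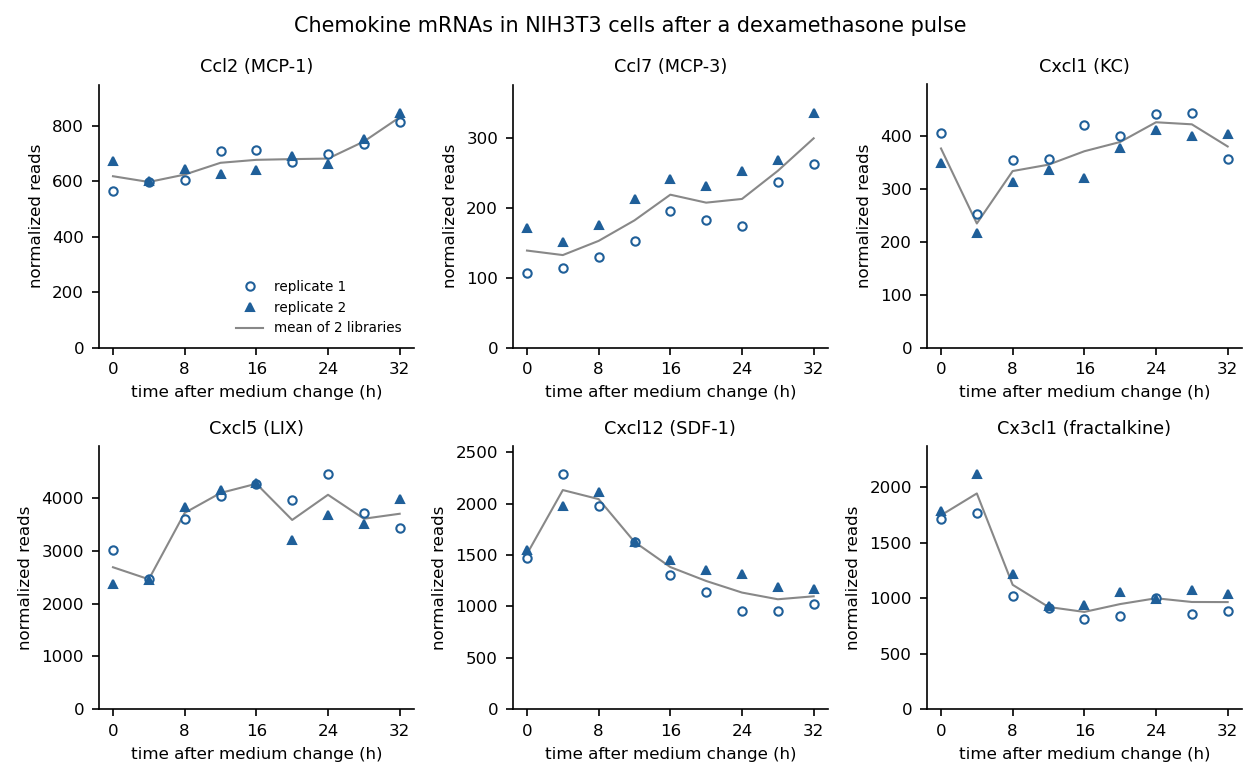
Normalised reads (y axis, from 0) of the 6 chemokine mRNAs against time after the medium change (x axis, h), with open points for replicate 1, filled points for replicate 2 and a line through the mean of the 2 libraries. Ccl2 and Ccl7 end at their highest mean at 32 h, Cxcl1 has its lowest at 4 h, Cxcl12 and Cx3cl1 peak at 4 h.

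Ccl2, the monocyte chemoattractant MCP-1, rose late and by little. At 0, 4, 8, 12, 16, 20, 24, 28 and 32 h replicate 1 held 564, 595, 604, 707, 712, 668, 699, 733 and 813 normalised reads of Ccl2, and replicate 2 held 671, 599, 643, 625, 642, 690.4, 663, 752 and 846. Both libraries of 32 h lay above all others, and those of 28 h came next in each replicate. Ccl2 averaged 829.9 ± 23.4 at 32 h, against 617 ± 76.3 at 0 h (SD, n = 2 each), a log2 change of 0.43 ± 0.09, or 1.35-fold (limma adjusted p = 0.00154). At 28 h the change was 0.27 ± 0.09 (limma adjusted p = 0.0266). This call was lost without replicate 1 of 0 h (0.282), replicate 1 of 28 h (0.0739) or replicate 2 of 28 h (0.121), adjusted p in brackets, and ran over all alternatives from 0.000522 to 0.282. At 4 to 24 h no contrast of Ccl2 with 0 h passed; without replicate 2 of 0 h, 24 h did (0.0483; 0.00539 to 0.901 over all alternatives), and with equal totals 12, 16, 20 and 24 h did. Its time means followed the order of the times except that 4 h was below 0 h. In that order the libraries of 24, 28 and 32 h were apart from each other, and the other 6 neighbouring pairs overlapped. Its F test over the 9 times (adjusted p = 0.00943) missed the threshold without replicate 2 of 32 h (0.0576), within a range of 0.000358 to 0.0576.

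Ccl7, the monocyte chemoattractant MCP-3 encoded next to Ccl2 on chromosome 11, rose as well, by more. Against 0 h it was called from 28 h on in the main fit and from 12 h on with the replicate block. Replicate 1 held 107, 113, 130.1, 152, 196, 184, 174, 238 and 263 normalised reads of Ccl7 at the 9 times, and replicate 2 held 172, 152, 176, 213, 242, 232, 252, 269 and 337. Replicate 2 was above replicate 1 at 9 of 9 times, by 1.13 to 1.61 times, and the libraries of neighbouring times overlapped in all 8 steps of the order of means, while each replicate on its own was highest at 32 h. The mean was 300.0 ± 52.0 at 32 h, against 139 ± 46.0 at 0 h (SD, n = 2 each), a log2 change of 1.13 ± 0.26, or 2.19-fold (limma adjusted p = 0.00303). The 28 h libraries differed from 0 h by 0.90 ± 0.26 (limma adjusted p = 0.0131). Leaving out replicate 1 of 0 h (0.163) or replicate 2 of 28 h (0.0829) ended the call at 28 h (1.70e-06 to 0.163 over all alternatives), and leaving out replicate 1 of 0 h (0.05004) that at 32 h, the highest value of that contrast in any alternative. With the replicate number as a block in the limma fit, Ccl7 was also called at 12 h (log2 0.41, adjusted p = 0.00607), 16 h (0.68, 5.26e-05), 20 h (0.61, 0.000185) and 24 h (0.63, 0.000134). Without the block these 4 had adjusted p of 0.241, 0.0530, 0.0816 and 0.0735. Equal totals called it at 16 h (adjusted p = 0.0109), 20 h (0.0165) and 24 h (0.0135) too, and DESeq2 at 16 h (0.0374). The contrast at 16 h sat at the threshold: in limma it passed without any one of replicate 1 of 8 h (0.04994), replicate 1 of 12 h (0.0479), replicate 1 of 24 h (0.0462), replicate 2 of 0 h (0.0169), replicate 2 of 12 h (0.0481) or replicate 2 of 24 h (0.0463). Those at 20 h and 24 h passed without replicate 2 of 0 h (0.0239), and 24 h also without replicate 1 of 24 h (0.0403). The ranges over all alternatives were 0.00607 to 0.880 at 12 h, 5.26e-05 to 0.400 at 16 h, 0.000185 to 0.526 at 20 h and 0.000134 to 0.501 at 24 h.

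Ccl7 gained on its neighbour within each replicate. At the 9 times the ratio of Ccl7 to Ccl2 reads was 0.189, 0.191, 0.215, 0.215, 0.276, 0.275, 0.248, 0.324 and 0.324 in replicate 1 and 0.256, 0.254, 0.274, 0.340, 0.377, 0.336, 0.381, 0.358 and 0.398 in replicate 2. It was thus 0.324 and 0.398 at 32 h, against 0.189 and 0.256 at 0 h, and a ratio within a library does not depend on its scaling. The 2 time courses had a Pearson r of 0.959 over the 9 time means, a description of points that share libraries.

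**Figure D3:**
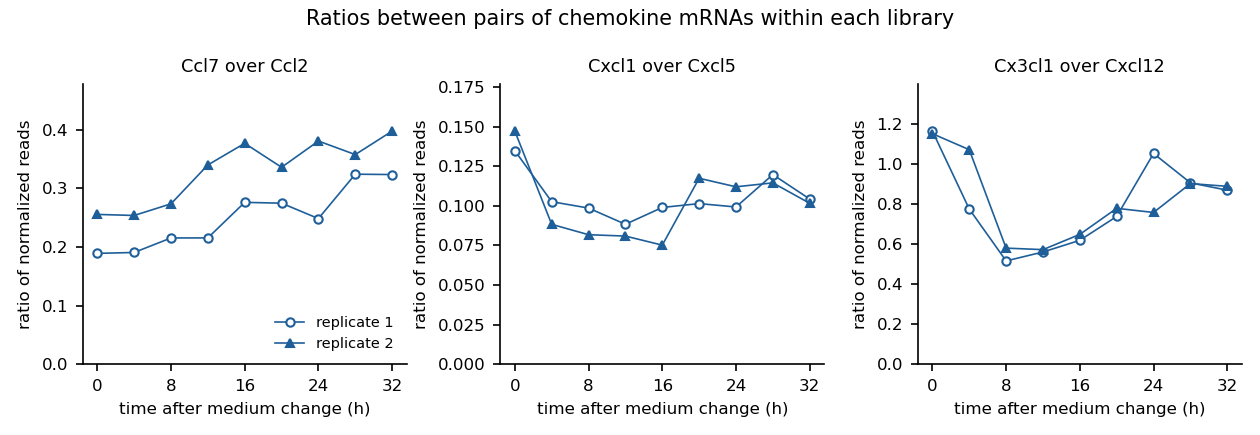
Ratio of normalised reads between pairs of chemokine mRNAs in the same library (y axis, from 0) against time after the medium change (x axis, h), with open points for replicate 1 and filled points for replicate 2. Ccl7 over Ccl2 is higher at 32 h than at 0 h in both replicates, Cxcl1 over Cxcl5 is highest at 0 h, and Cx3cl1 over Cxcl12 dips at 8 to 12 h.

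Cxcl1, the neutrophil chemokine KC of chromosome 5, dipped once, at 4 h. Replicate 1 held 406, 254, 355, 357, 422, 402, 442, 445 and 357 normalised reads of Cxcl1 at 0, 4, 8, 12, 16, 20, 24, 28 and 32 h, and replicate 2 held 349, 216, 314, 336, 322, 377, 411, 401 and 405. Both 4 h libraries were below the other 16, and 4 h and 8 h were the one neighbouring pair in the order of means without overlap. The mean was 235 ± 26.6 at 4 h, against 377 ± 40.1 at 0 h (SD, n = 2 each), a log2 change of -0.68 ± 0.13, or 1.60-fold lower (limma adjusted p = 0.00270). The fall was called in every alternative (3.18e-05 to 0.0300). From 8 h on no contrast of Cxcl1 with 0 h passed, with log2 changes between -0.17 and 0.18. With equal totals, those at 24 h (adjusted p = 0.0272) and 28 h (0.0280) did, within ranges of 0.0272 to 0.777 and 0.0280 to 0.816. Between the adjacent times the recovery at 8 h against 4 h was called, at 0.51 ± 0.13 (limma adjusted p = 0.0232). It was lost without replicate 1 of 8 h (0.152) or replicate 2 of 4 h (0.192), in a range of 0.000958 to 0.192. Replicate 2 was above replicate 1 at 1 of 9 times.

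Cxcl5, known in mice as LIX, a ligand of the same receptor from the same chromosome, was not called at 4 h (log2 -0.12 ± 0.12, limma adjusted p = 0.518) and rose from 8 h on. In Cxcl5, replicate 1 held 3009, 2474, 3601, 4037, 4263, 3960.2, 4454, 3717 and 3427 normalised reads and replicate 2 held 2369.8, 2449, 3839, 4159, 4283, 3212, 3673, 3502 and 3980.4. The libraries of 0 h and 4 h lay between 2370 and 3009, and those of 8 h onward between 3212 and 4454. Cxcl5 averaged 4273 ± 13.7 at 16 h, its highest time, against 2689 ± 452 at 0 h (SD, n = 2 each), a log2 change of 0.68 ± 0.12, or 1.60-fold (limma adjusted p = 0.000475). In the order of means, from 4, 0, 20, 28, 32, 8, 24 and 12 h to 16 h, the libraries overlapped between 6 of 8 neighbours and were apart between 0 h and 20 h and between 12 h and 16 h. From 8 h on it was above 0 h at all 7 times, by 1.34-fold at 20 h to 1.60-fold at 16 h, and the step at 8 h against 4 h was 0.59 ± 0.12 (limma adjusted p = 0.00558, 6.54e-05 to 0.0489 over all alternatives). At 0 h replicate 2 was at 0.788 times replicate 1, and 4 of the 7 calls were lost when replicate 2 of 0 h was left out. At 8 h (limma adjusted p = 0.00712) the loss came without replicate 2 of 0 h (0.109) and at 20 h (0.0127) without replicate 1 of 20 h (0.157) or replicate 2 of 0 h (0.171). At 28 h (0.00972) it came without replicate 1 of 28 h (0.0670) or replicate 2 of 0 h (0.136) and at 32 h (0.00606) without replicate 2 of 0 h (0.0918) or replicate 2 of 32 h (0.0756). These 4 ran over all alternatives from 0.000426 to 0.109, 0.000597 to 0.171, 0.000378 to 0.136 and 0.000258 to 0.0918, while the calls at 12, 16 and 24 h held in each. The ratio of Cxcl1 to Cxcl5 was 0.103 and 0.0883 at 4 h, against 0.135 and 0.147 at 0 h, and no later library reached its replicate's value at 0 h.

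Cxcl12, the stromal chemokine SDF-1 of chromosome 6, was called both above and below 0 h. At the 9 times replicate 1 held 1471, 2286, 1977, 1629, 1309, 1142, 952, 951 and 1022 normalised reads of Cxcl12, and replicate 2 held 1549, 1977, 2109, 1625, 1455, 1351, 1316, 1186 and 1173. All 4 libraries of 4 h and 8 h were above the 2 of 0 h, and all 6 of 24 h to 32 h below them. Ordered by mean, from 28, 32, 24, 20, 16, 0, 12 and 8 h to 4 h, the libraries overlapped between 5 of 8 neighbours, and the 3 pairs that were apart lay between 16 h and 8 h in this order. Cxcl12 averaged 2131 ± 218 at 4 h, against 1510.0 ± 54.8 at 0 h (SD, n = 2 each), a log2 change of 0.49 ± 0.14, or 1.41-fold (limma adjusted p = 0.0236). At 8 h it was 0.44 ± 0.14 above 0 h (limma adjusted p = 0.0282). At 24 h it was -0.43 (0.0267), at 28 h -0.51 (0.0105) and at 32 h -0.46 (0.0170), each with an SE of 0.14, limma adjusted p in brackets. Each call against 0 h was lost in at least 1 leave-one-out fit. The 4 h call was lost without replicate 1 of 0 h (0.0865), replicate 1 of 4 h (0.167) or replicate 2 of 0 h (0.0927), in a range of 0.000676 to 0.167 over all alternatives, and the 8 h call without replicate 1 of 0 h (0.109), replicate 1 of 8 h (0.0647), replicate 2 of 0 h (0.0784) or replicate 2 of 8 h (0.119), in a range of 0.00129 to 0.119. That at 24 h was lost without replicate 1 of 0 h (0.0664), replicate 1 of 24 h (0.316) or replicate 2 of 0 h (0.117) and with equal totals (0.184), in a range of 0.00128 to 0.316. That at 28 h was lost without replicate 1 of 28 h (0.127) or replicate 2 of 0 h (0.0604) and with equal totals (0.0875), in a range of 0.000260 to 0.127. That at 32 h was lost without replicate 1 of 32 h (0.133) or replicate 2 of 0 h (0.0838) and with equal totals (0.140), in a range of 0.000615 to 0.140. With the replicate block, the contrast at 20 h was called as well (log2 -0.28, adjusted p = 0.0243, against 0.134 without the block, in a range of 0.0243 to 0.644). The contrasts a day apart, which do not use 0 h, were called in every alternative: 28 h against 4 h was -1.0 ± 0.14, or 2.00-fold lower (limma adjusted p = 7.04e-05, 6.27e-11 to 0.00171), and 32 h against 8 h was -0.90 ± 0.14 (0.000511, 1.89e-08 to 0.00813).

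Cx3cl1, the fractalkine gene of chromosome 8, fell at 8 h and was below 0 h at every later time. Replicate 1 held 1713, 1772, 1020.1, 913, 810.2, 843, 1003, 862 and 889 normalised reads of Cx3cl1 at 0, 4, 8, 12, 16, 20, 24, 28 and 32 h, and replicate 2 held 1785, 2119.9, 1223, 930.1, 943, 1052, 998, 1071 and 1043. The 4 libraries of 0 h and 4 h were at 1713 or more, and the 14 later ones at 1223 or less. By mean the times ran 16, 12, 20, 32, 28, 24, 8, 0 and 4 h, and 6 of 8 neighbours overlapped, all but 24 h with 8 h and 8 h with 0 h. The mean was 1122 ± 143 at 8 h, against 1946 ± 246 at 4 h (SD, n = 2 each), a log2 change of -0.79 ± 0.13, or 1.73-fold lower (limma adjusted p = 0.00187, 2.62e-07 to 0.0321 over all alternatives). Against 0 h the change at 8 h was -0.65 ± 0.13 (limma adjusted p = 0.00224). The lowest mean came at 16 h, 877 ± 94.2, against 1749 ± 50.7 at 0 h (SD, n = 2 each), a log2 change of -1.0 ± 0.13, or 2.00-fold lower (limma adjusted p = 4.94e-05). From 20 h to 32 h it was 1.75- to 1.86-fold below 0 h. All 7 calls from 8 h on held in every alternative, with a highest adjusted p of 0.0316. Within libraries, Cx3cl1 over Cxcl12 was 0.516 and 0.580 at 8 h, against 1.17 and 1.15 at 0 h.

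Of the steps between neighbouring times, only those up to 8 h called any of the 6, apart from 1 call with the replicate block. At 8 h against 4 h 3 of the 6 were called (background 11.3%), Cxcl1 and Cxcl5 higher and Cx3cl1 lower. No later step between neighbouring times called any of the 6 by limma, edgeR or DESeq2. At an unadjusted p under 0.05, limma passed 1 of them at 12 h against 8 h, 1 at 20 h against 16 h and 0 in the other 4 steps. By that threshold the former step passed 1084 of the 12393 tested genes and the latter 374, while the other 4 steps passed 118 to 632. The replicate block called 1 at 12 h against 8 h. Of all tested genes these steps called 0.500% at 12 h against 8 h, 0.00807% at 16 h against 12 h, 0.0565% at 20 h against 16 h, 0.0161% at 28 h against 24 h, and 0 in the other 2 steps. A day apart, 28 h against 4 h called all 6 (41.4%), 4 higher (20.6% of all genes) and 2 lower (20.7%). Cxcl1 was 1.80-fold and Ccl7 1.92-fold higher at 28 h, and Cx3cl1 2.02-fold lower. The calls of Ccl2 (0.31 ± 0.09, limma adjusted p = 0.0120) and Ccl7 (0.94 ± 0.26, 0.00994) in this contrast were lost without replicate 1 of 4 h (0.0511) or replicate 2 of 28 h (0.0731) for Ccl2 and without replicate 1 of 4 h (0.0921) or replicate 2 of 28 h (0.0710) for Ccl7, in ranges of 0.000499 to 0.0731 and 8.95e-07 to 0.0921. For 32 h against 8 h 3 of 6 were called (27.6%), Ccl2 (0.41 ± 0.09, limma adjusted p = 0.00424) and Ccl7 (0.97 ± 0.26, 0.0134) higher and Cxcl12 lower. That of Ccl7 was lost without replicate 1 of 8 h (0.124) or replicate 2 of 32 h (0.124), in a range of 1.28e-06 to 0.124. Cx3cl1 joined them with the replicate block (log2 -0.21, adjusted p = 0.0300, against 0.259 without it, 0.0300 to 0.740 over all).

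The dexamethasone pulse sets the phase of the circadian clock of a culture, so a 24 h cosine was also fitted. None of the 6 passed by limma (background 0.371%), edgeR or DESeq2, with unadjusted limma p of 0.0197 for Cxcl5 and 0.0240 for Cx3cl1 and above 0.05 for the other 4, that is 2 under 0.05. Of the 12393 tested genes, 2107 had an unadjusted limma p under 0.05 in this test. When a linear term was added to the cosine, Cxcl5 (adjusted p = 0.0285, 0.0285 to 0.360 over all alternatives) and Cx3cl1 (0.00720, 0.00720 to 0.383) passed. With that term 2108 of the 12393 tested genes passed, against 46 without it. The fitted crest was at 14.3 h for Cxcl5 and 2.45 h for Cx3cl1, and the course covers little more than 1 period, so a single rise or drop and a rhythm cannot be told apart. Over the 9 time means, Cxcl5 and Cx3cl1 had a Pearson r of -0.954, the most negative of the 15 pairs.

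By the same measure, Pearson's r over the 9 time means of log2(value + 1), the 3 most alike of the 10953 tested genes with a mean of at least 50 were named for each chemokine. For Ccl2 these were Khnyn (r = 0.986), Cdon (r = 0.981) and Ep300 (r = 0.975). For Ccl7 they were Dlg3 (r = 0.988), Vps13c (r = 0.984) and Apbb1 (r = 0.984), and for Cxcl1 Scaper (r = 0.975), Cbr1 (r = 0.971) and Sucla2 (r = 0.969). Closest to Cxcl5 were Hells (r = 0.983), Rif1 (r = 0.975) and Bcs1l (r = 0.973). Closest to Cxcl12 were Masp2 (r = 0.997), Gars (r = 0.995) and Pisd (r = 0.995), and closest to Cx3cl1 Timp3 (r = 0.994), Leng8 (r = 0.993) and Lbh (r = 0.991). Hells and Rif1 act at replicating DNA, Gars is the glycyl-tRNA synthetase, and Timp3 is an inhibitor of metalloproteases that also blocks Adam17. These likenesses describe 9 points that share libraries, with no test.

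The other ligands of the family were mostly at or near 0. Of 22 other CC chemokines, 11 were at 0 in all 18 libraries, a count of 0 that allows up to 3 reads per library, and 4 had a mean of at least 10: Ccl9, Ccl17, Ccl25 and Ccl27a. Of 13 other CXC and XC ligands, 2 were at 0 throughout and 3 were tested: Ppbp, Cxcl10 and Cxcl16. Ppbp, a further Cxcr2 ligand known from platelets and encoded beside Cxcl5, had the highest mean per kb of the ligands tested at 0 to 28 h, with 6811 normalised reads per kb at 0 h. At 32 h it had 2085 per kb, below the 2352 of Cxcl5. At 0, 4, 8, 12, 16, 20, 24, 28 and 32 h replicate 1 held 8635, 8816, 8027, 8169, 6499, 5371, 4624, 3124 and 2427 normalised reads of Ppbp, and replicate 2 held 6118, 6372, 5975, 5777, 5347, 3932, 3472, 2452 and 2089. Every library until 12 h was at 5777 or more, and both replicates were lower at each time after that. Its mean was 2258 ± 239 at 32 h, against 7376 ± 1779.7 at 0 h (SD, n = 2 each), a log2 change of -1.69 ± 0.24, or 3.23-fold lower (limma adjusted p = 6.10e-05, 7.48e-15 to 0.00148 over all alternatives).

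Ccl17, a ligand of Ccr4 encoded beside Cx3cl1, spiked at 4 h. Replicate 1 held 28.9, 94.0, 36.4, 20.6, 8.38, 7.27, 12.9, 17.3 and 6.58 normalised reads of Ccl17 and replicate 2 held 26.1, 111, 37.9, 16.6, 11.6, 17.2, 15.6, 12.1 and 14.2. Both 4 h libraries were above all others. The mean was 102 ± 11.8 at 4 h, against 27.5 ± 1.99 at 0 h (SD, n = 2 each), or 3.62-fold (log2 1.86 ± 0.38, limma adjusted p = 0.00404, 8.70e-05 to 0.0409 over all alternatives). At 32 h it was 2.65-fold below 0 h (log2 -1.41 ± 0.38, limma adjusted p = 0.00910), a call lost without replicate 1 of 0 h (0.0514) or replicate 1 of 32 h (0.124), in a range of 0.00222 to 0.124. Ccl9, a macrophage inflammatory protein of rodents, was below 0 h at each later time, lowest with 129 ± 1.41 at 20 h, against 294 ± 42.6 at 0 h (SD, n = 2 each), a log2 change of -1.17 ± 0.13 (limma adjusted p = 7.74e-06). Its call at 4 h (log2 -0.43, 0.0294) was lost without replicate 1 of 4 h (0.191) or replicate 2 of 0 h (0.291) and without the filter on the mean (0.0522), in a range of 0.00907 to 0.291. Ccl25, Ccl27a, Cxcl10 and Cxcl16 did not pass the F test over the 9 times, with adjusted p of 0.486, 0.977, 0.197 and 0.973. Ccl25 passed it with equal totals (0.0447, in a range of 0.0447 to 0.776), and reads of Ccl27a are uncertain because the mouse genome holds near-identical copies.

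**Figure D4:**
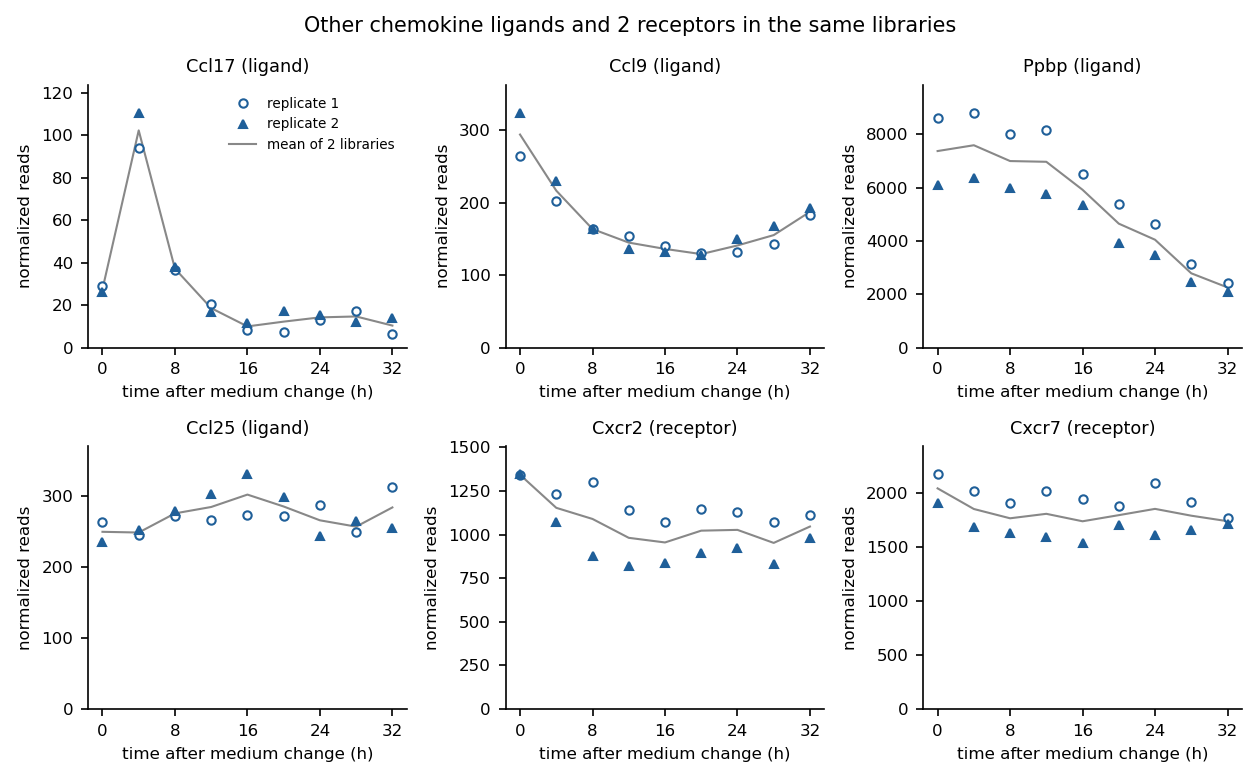
Normalised reads (y axis, from 0) of the other chemokine ligand and receptor mRNAs shown, against time after the medium change (x axis, h), with open points for replicate 1, filled points for replicate 2 and a line through the mean of the 2 libraries. Ccl17 peaks at 4 h in both replicates and Ppbp is lowest at 32 h.

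The receptors for the 6 ligands were unevenly present. Cxcr7, the scavenger of Cxcl12, stood at 1531 to 2172 normalised reads over the 18 libraries, while Cxcr4 was at 0 in all of them. Cxcr2, the receptor of Cxcl1, Cxcl5 and Ppbp, ran from 821 to 1347. Neither passed the F test over the 9 times (adjusted p = 0.900 for Cxcr7 and 0.416 for Cxcr2), though Cxcr2 did with the replicate block (0.00130, in a range of 0.00130 to 0.911). At 32 h against 0 h the block called both lower (log2 -0.36 for Cxcr2 and -0.23 for Cxcr7). Ccr2, which binds Ccl2 and Ccl7, was at 1.01 normalised reads or less, and Cx3cr1 at 1.05 to 15.1. Of the 23 receptors listed, 4 passed the filter on the mean and were tested. Ccr7, a receptor of lymphocytes and dendritic cells, held 22 ± 3.20 normalised reads at 32 h, against 5.03 ± 4.55 at 0 h (SD, n = 2 each). It passed the filter only through the 32 h libraries, with a mean of 9.32 over the other 16, so no test of it is given. Of the other 3, Xcr1 also missed the F test (0.0942, 0.0445 to 0.612), except without replicate 1 of 8 h (0.0445).

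Genes that act on chemokine expression were read from lists. All tested genes had a median log2 change of -0.0015 at 4 h and 0.0128 at 32 h against 0 h, with 11.0% called higher and 10.5% lower at 4 h, and 20.5% higher and 20.4% lower at 32 h. Equal totals called 5561 of the 12393 tested genes higher and 1301 lower at 32 h, the background for list counts with equal totals here and below. Of 15 NF-kB subunits and feedback genes, all tested, 1 rose and 1 fell at 4 h, and 2 rose and 5 fell at 32 h, against 0 h. At 4 h the call upward was Birc3 (log2 0.43 ± 0.12, limma adjusted p = 0.0206) and that downward the inhibitor Nfkbia (-0.42 ± 0.09, 0.00693). The call of Birc3 was lost without replicate 1 of 4 h (0.122) or replicate 2 of 0 h (0.212) and with DESeq2 (0.0620), in a range of 0.00744 to 0.212, and that of Nfkbia without replicate 2 of 0 h (0.114), in a range of 0.000547 to 0.114. At 32 h Tnfaip3, the deubiquitinase A20, was 2.45-fold lower (limma adjusted p = 0.000247). The medians of the list were 0.01 at 4 h and 0.03 at 32 h. With equal totals the split at 32 h was 6 higher and 1 lower, and with 1 library left out the falls at 32 h ran over 1 to 5, with 1 without replicate 1 of 32 h and 2 without replicate 2 of 0 h or of 32 h.

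Of 18 cytokines and adhesion genes of inflammation, 9 were tested. All 9 passed the F test over the 9 times, as did 52.0% of all tested genes, and Il6 passed narrowly (limma adjusted p = 0.0496). At 4 h 0 rose (0 also at an unadjusted limma p under 0.05, by edgeR and by DESeq2, and 1 with the replicate block or without replicate 1 of 0 h) and 3 fell, with a median of -0.51, and at 32 h 2 rose and 6 fell, with a median of -0.57. The falls at 4 h were 0 without replicate 2 of 4 h, 1 without replicate 1 of 0 h and 5 with the replicate block. Ptgs2, the inducible cyclooxygenase, averaged 9829 ± 1730.1 normalised reads at 32 h, against 82572 ± 20332 at 0 h (SD, n = 2 each), or 8.34-fold lower (limma adjusted p = 2.10e-07). The granulocyte factor Csf3 held 49.1 ± 2.29 at 32 h, against 499.6 ± 7.95 at 0 h, or 9.99-fold lower (6.29e-08). At 4 h both were lower too (log2 -0.90 for Ptgs2 and -0.71 for Csf3), but the call was lost for Ptgs2 (limma adjusted p = 0.0141) without replicate 1 of 0 h (0.104) or replicate 2 of 4 h (0.107), in a range of 7.90e-11 to 0.107. For Csf3 (0.0372) it was lost without replicate 1 of 0 h (0.0895), replicate 2 of 0 h (0.174) or replicate 2 of 4 h (0.226) and without the filter on the mean (0.0620), in a range of 0.00929 to 0.226. Il11 was 5.93-fold and Csf1, the growth factor of macrophages, 1.48-fold lower at 32 h. In the same contrast, 32 h against 0 h, Ccl2 was at 0.43, Ccl7 at 1.13 and Cxcl5 at 0.47 (log2), each called higher. Cxcl12 was at -0.46 and Cx3cl1 at -0.86, both called lower, and Cxcl1 at 0.02 was not called. The pentraxin Ptx3 (1.26 ± 0.22) and the adhesion molecule Vcam1 (0.72 ± 0.14) were the 2 of the list that rose at 32 h.

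Among 18 targets of the glucocorticoid receptor, 16 were tested. Of these, 1 rose and 11 fell at 4 h against 0 h, with a median of -0.74. At 32 h 1 rose and 11 fell, with a median of -0.86. The rises at 32 h were 2 with equal totals and 2 with the replicate block. At 4 h Errfi1 was 4.65-fold lower (limma adjusted p = 4.96e-07), Fkbp5, a co-chaperone of the receptor, 1.96-fold lower (5.47e-07) and the clock gene Per1 2.17-fold lower (1.52e-06). The 1 called higher was Ddit4 (log2 0.34 ± 0.09, 0.0148), a call lost without replicate 1 of 0 h (0.113) or replicate 1 of 4 h (0.137), in a range of 0.00192 to 0.137. Of 8 regulators of mRNA stability (Zfp36, Zfp36l1, Zfp36l2, Elavl1, Hnrnpd, Khsrp, Zc3h12a and Rc3h1), 3 fell at 4 h and 7 at 32 h. Their medians were -0.26 and -0.56. At either time 0 rose, also at an unadjusted limma p under 0.05, by edgeR and by DESeq2. Elavl1, lower at 32 h (log2 -0.44), is known to stabilise AU-rich mRNAs, so the list mixes opposite actions and its count gives no direction of decay. The replicate block made the falls 5 at 4 h. Zfp36, tristetraprolin, averaged 714 ± 26.6 normalised reads at 4 h, against 1652 ± 306 at 0 h (SD, n = 2 each), or 2.29-fold lower (limma adjusted p = 2.88e-05), and Zfp36l2 was 2.07-fold lower (3.91e-06). With equal totals 1 of these 8 rose at 32 h.

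Of 7 genes that process or shed chemokines, 6 were tested, of which 0 rose (0 also at an unadjusted limma p under 0.05, by edgeR and by DESeq2) and 2 fell at 4 h and 1 rose and 3 fell at 32 h against 0 h, with medians of -0.19 and -0.145. The falls at 4 h were 0 without replicate 2 of 0 h and 1 without either library of 4 h. Adam17, one of the sheddases of Cx3cl1, averaged 2654 ± 9.48 normalised reads at 32 h, against 2025 ± 56.7 at 0 h (SD, n = 2 each), a log2 change of 0.39 ± 0.08 (limma adjusted p = 0.00110). Adam10, the other, was lower at 4 h (log2 -0.22 ± 0.05, limma adjusted p = 0.0104), a call lost without replicate 1 of 4 h (0.0577) or replicate 2 of 0 h (0.105), in a range of 0.00142 to 0.105. Mmp14, a membrane-bound metalloprotease, was 1.93-fold lower at 32 h (7.52e-08). With equal totals 3 of the list rose at 32 h.

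**Figure D5:**
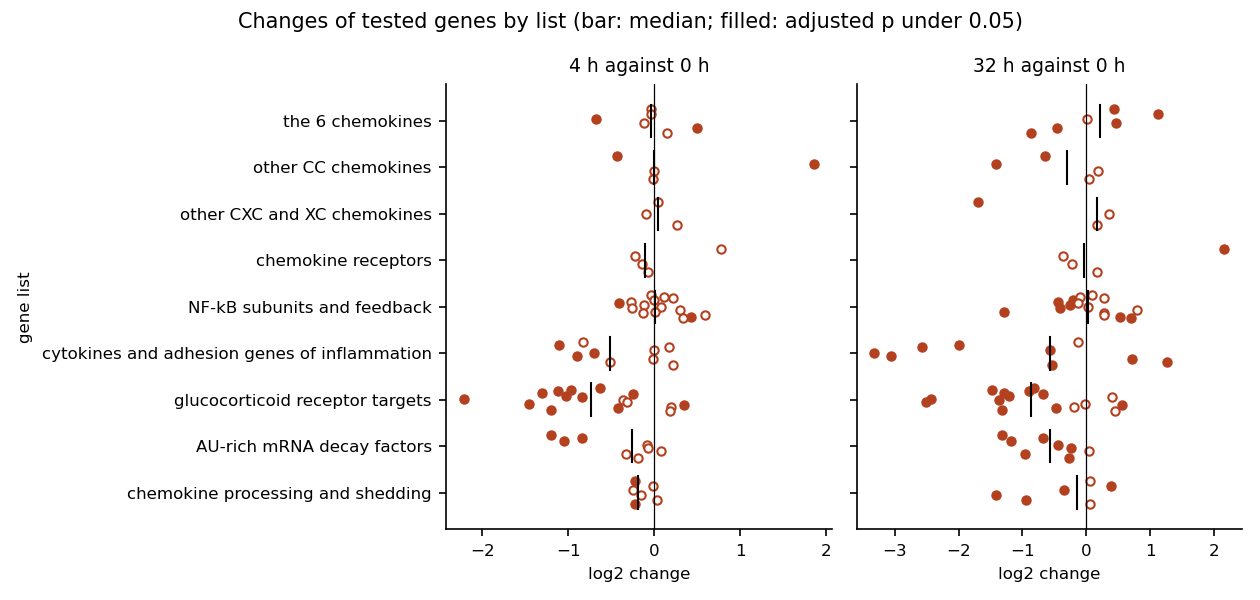
Log2 change against 0 h (x axis) of the tested genes of each list (rows), 1 point per gene, filled where the adjusted p is under 0.05, with a bar at the median. The glucocorticoid receptor targets and the row named AU-rich mRNA decay factors, which also holds the stabiliser Elavl1, lie mostly below 0. The 6 chemokines lie on both sides. The filled receptor point at 32 h is Ccr7. No test of it is read, since it passed the filter only through the 32 h libraries.

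Of the fibroblast markers, Col1a1, Col1a2, Col3a1, Vim, Pdgfrb and Thy1 each had at least 4421 normalised reads in every library, while S100a4 averaged 31387, Pdgfra 2632, Dcn 203, Fap 15.1 and Lum 3.26. Of 11 fibroblast markers 10 were tested, of which 4 fell and 0 rose at 4 h (0 also at an unadjusted limma p under 0.05, by edgeR and by DESeq2) and 5 fell and 1 rose at 32 h against 0 h, while their summed level ran from 609628 to 818798 over the libraries. The falls at 4 h were 2 without the filter on the mean, 7 with the replicate block, 2 without replicate 1 of 4 h and 1 without replicate 2 of 0 h, and those at 32 h were 2 with equal totals. The rise, of Pdgfrb, was lost without replicate 1 of 0 h (0.0799) or replicate 2 of 32 h (0.105), in a range of 4.26e-05 to 0.105. The 9 leukocyte markers summed to 303 to 420 normalised reads, mostly from Cd68 and Csf1r. Of the 3 tested, 1 was lower at 4 h (Lyz2) and 1 at 32 h (Csf1r), both lost in several alternatives. Cd68 went the other way, without a call in the main fit (log2 0.30 at 4 h and 0.49 at 32 h). With the replicate block it was called higher at both times (limma adjusted p = 0.0446 and 0.00137). Lyz2, at few reads, was 3.53-fold higher at 28 h than at 4 h (limma adjusted p = 0.000588). The summed level of the 9 averaged 343 at 0 h and 380 at 32 h. Cd3e and Tyrobp were at 0 in all libraries and Ptprc was at 4.87 or less. The 6 endothelial markers summed to 42.5 to 105, with Kdr at 0, and neither of the 2 tested was called at 4 h or 32 h by limma, edgeR or DESeq2, nor at an unadjusted limma p under 0.05. With the replicate block Cdh5 was called lower at 32 h. The 6 epithelial markers summed to 177 to 1196, with Epcam at 3.86 or less, and averaged 229.9 at 32 h, against 1048 at 0 h. Of the 3 tested, 1 was higher at 4 h (Krt18), a call lost without replicate 1 of 4 h (0.102) or replicate 2 of 0 h (0.0942), in a range of 0.00405 to 0.102, and 2 were lower at 32 h. Krt8 was 6.20-fold lower at 32 h than at 0 h (limma adjusted p = 5.05e-08), and the part of these markers in the chemokine changes was not tested. Depth in genes was 31.9 to 38.9 M reads over the libraries of replicate 1 and 25.4 to 32.0 M over those of replicate 2. Counting error is therefore small for Cxcl5, with at least 2369.8 normalised reads in a library, and large for Ccl17, with as few as 6.58.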

How the data were processed

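RNA was sequenced in 18 libraries of NIH3T3 cells, 2 at each of 9 times after a dexamethasone pulse. In the deposited table each value is a signal, a gene's read count in a library divided by that library's size factor and rounded to 2 decimals. Per the submitters' processing notes, TopHat, HTSeq, DESeq and the build mm9 were used; versions, roles and the annotation are not given in the sources used here. Dividing each column by its smallest step gave whole reads within 0.02 for 100% of values (largest distance 0.00611). All columns were mapped to a sample.

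Genes with a mean of at least 10 normalised reads (12393 of 21937; 4267 were at 0 throughout) were tested with limma 3.58.1 (R 4.3.3) on log2(value + 1) with a variance trend and all 18 libraries, two-sided, with a Benjamini-Hochberg threshold of 0.05. An F test over the 9 times was followed by contrasts with 0 h, between neighbouring times and a day apart, and by a cosine and sine of 24 h. A fold change on this scale understates the change of low genes. The members and all gene lists were chosen with earlier results of these data known. Named genes were the 6 members, the other tested chemokine ligands and receptors, up to 4 genes of each further list with the smallest p of the F test, and the 3 genes most alike to each member. Further genes named where a list had few calls (Birc3, Ddit4, Ptx3 and Vcam1) were chosen after their values were seen.

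Alternatives were a pseudocount of 5, no filter, equal totals, the recovered read counts in edgeR 4.0.16 or in DESeq2 1.42.0, a replicate block, leaving out each library (the library left alone at its time was assumed to vary like the others) and, for the rhythm, a linear term. How far a library deviated from the mean of its time correlated between libraries of one number, with r above 0.1 in 36 of 36 pairs of times (0.230 to 0.502, median 0.345), so the numbers pair the libraries; the labels name no source of the pairing, and the main fits leave it out. The main limma fit was run on simulated counts for 4 h against 0 h and for the rhythm, with outcomes not given here. The simulated libraries had no shared deviation by number, and the other fits were not tested in this way. Promoters came from RefSeq (GRCm38.p6), exon lengths from GENCODE (GRCm38) and neighbouring genes from RefSeq's gene order. Python 3.11.15 with matplotlib 3.10.9 drew the figures.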

Additional observations from a re-analysis of the deposited data

How the results depend on the processing

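The calls of Cxcl1 at 4 h, of Cx3cl1 from 8 h on, of Cxcl5 at 12, 16 and 24 h, and of Cxcl12 a day apart (28 h against 4 h, 32 h against 8 h) kept their direction and stayed called under all alternatives run. Values that changed sign had no call in the main analysis. With equal totals these were, in log2, Cxcl1 at 12 h (0.0594) and 16 h (0.161) and Cxcl12 at 16 h (0.0609) against 0 h, Cxcl12 at 8 h against 4 h (0.0495) and Cxcl5 at 32 h against 8 h (0.0612). With 1 library left out in turn, changes against 0 h that took both signs were those of Ccl2 at 4 h (-0.17 to 0.0824), 8 h (-0.107 to 0.145) and 12 h (-0.0146 to 0.238), Ccl7 at 4 h (-0.385 to 0.298) and 8 h (-0.181 to 0.502), Cxcl1 at 16 h (-0.224 to 0.166), 20 h (-0.059 to 0.158) and 32 h (-0.0928 to 0.124), and Cxcl5 at 4 h (-0.29 to 0.0548). At 8 h against 4 h these were Ccl7 (-0.0121 to 0.42) and Cxcl12 (-0.163 to 0.0469), and at 32 h against 8 h Cxcl5 (-0.117 to 0.0983). The causes were not tested.

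Equal totals called 6281, 6530 and 6688 of the 12393 tested genes at 16, 20 and 24 h against 0 h. The number of the 6 chemokines called moved by over 1.5 times with equal totals (16 h: 4, 20 h: 4, 24 h: 5), with the replicate block (20 h: 4, 12 h against 8 h: 1) and with a linear term in time (rhythm: 2). With 1 library left out it ran over 1 to 2 at 4 h, 1 to 3 at 8 h, 1 to 2 at 20 h, 2 to 5 at 28 h and 3 to 5 at 32 h.

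Of all tested genes, the replicate block, which pairs libraries by number, called 4662 at 4 h against 0 h (2664 without it), 3043 at 8 h against 4 h (1395), 479 at 12 h against 8 h (62), 159 at 16 h against 12 h (1), 42 at 20 h against 16 h (7), 5 at 24 h against 20 h (0), 10 at 28 h against 24 h (2), 2 at 32 h against 28 h (0), 5241 at 32 h against 8 h (3422) and 74 in the rhythm test (46). Beside the calls of the 6 given above, it added calls for 13 of the other listed genes in the F test, 14 at 4 h and 9 at 32 h. It took none away in these. The 13 include Ccr7, which passed the filter only through the 32 h libraries and is not read as a result. Ccr7 also enters the counts of listed genes at 32 h given below. Equal totals gave 2381 at 8 h against 4 h and 19 for the rhythm. DESeq2 gave 128, 18, 16, 3 and 3 for the steps that end at 12, 16, 20, 24 and 32 h, and 533 for the rhythm. The rhythm count was 26 without the filter on the mean and 2108 with the linear term. With 1 library left out the counts ran over 971 to 2719 at 4 h and 2571 to 4331 at 8 h against 0 h, 572 to 1453 at 8 h against 4 h, 6 to 58 at 12 h against 8 h, 1 to 4 at 16 h against 12 h, 4 to 8 at 20 h against 16 h, 0 to 2 at 24 h against 20 h, 1 to 2 at 28 h against 24 h, 3409 to 5159 at 28 h against 4 h, 1554 to 3508 at 32 h against 8 h, and 18 to 48 for the rhythm. The lowest at 4 h and 8 h came without replicate 2 of 0 h, at 8 h against 4 h without replicate 2 of 4 h, at 28 h against 4 h without replicate 2 of 28 h and at 32 h against 8 h without replicate 2 of 32 h. Of the counts of listed genes higher or lower at 4 h and 32 h, 31 of 288 moved by over 1.5 times under the other alternatives and 34 of 864 with 1 library left out.

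With 2 libraries at each time, replicates that differ, as for Ccl7, widen the spread, and genes with a mean under 10 normalised reads were not tested. Reads are not independent molecules, so a limit from a count of 0 covers counting error only.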

Other observations

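Of the 6 chemokine genes, 5 have another chemokine gene as an immediate neighbour in RefSeq's gene order, and neighbours often differed in level or course. On chromosome 5, Cxcl5 and Ppbp lie side by side. At 32 h against 0 h Cxcl5 was at 0.47 ± 0.12 (log2) and Ppbp at -1.69 ± 0.24. In the same order Pf4 follows Ppbp, with a mean of 2.61 normalised reads over the 18 libraries, against 3578 for Cxcl5 and 5402 for Ppbp.

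Cxcl1 lies between Cxcl15 and Cxcl2, further along chromosome 5, with Cxcl3 next after Cxcl15. Cxcl1 averaged 365 normalised reads over the libraries, against 2.44 for Cxcl15, 0.263 for Cxcl2 and 0.426 for Cxcl3. On chromosome 11, Ccl2 (679) and Ccl7 (200.1) are followed by Ccl11 (1.87) and Ccl12, which was at 0 in all libraries.

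On chromosome 8, Cx3cl1 lies between Ccl22, with a mean of 1.49 normalised reads, and Ccl17. At 4 h, when Ccl17 was 3.62-fold above 0 h, Cx3cl1 was not called (log2 0.15 ± 0.13, limma adjusted p = 0.468), and from 16 h on both were below 0 h, Ccl17 with a call at 16, 20 and 32 h, and with the replicate block also at 24 and 28 h.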
